A study of Bactrocera dorsalis with 16 samples.

Results

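The miRNAs miR-275 and miR-305 were followed in small RNA libraries of the oriental fruit fly, Bactrocera dorsalis. Every entry of the deposited table named for miR-275 or miR-305 was taken, and entries of identical sequence were summed. That gave 8 of the 747 distinct sequences in the table, 5 named for miR-275 and 3 for miR-305. The study profiled ovary and fat body of adult females at 1, 5, 9 and 13 days after eclosion, the moment the adult leaves the pupal case. There were 2 libraries for each tissue and day, 16 in all, which the labels list as separate samples. All flies were kept under one light cycle, warmth and humidity on a diet of yeast extract and sugar, and the labels name no mutation or treatment. No strain is named.

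MiR-275 and miR-305 are conserved insect miRNAs whose hairpins lie close together in the genome and are thought to be cut from one primary transcript. Each hairpin yields a duplex of 2 short RNAs, one from its 5p and one from its 3p arm, of which one usually accumulates. Bases 2 to 8 of the mature RNA, the seed, choose most of its targets. In the mosquito Aedes aegypti, miR-275 is needed for blood digestion and egg development. In Drosophila melanogaster, miR-305 acts in intestinal stem cells, where it links nutrition and insulin signalling to Notch signalling. Eggs form in the ovary, while the fat body is the insect's store of fat and its source of yolk proteins.

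The 4 sequences that carry the results are shown first, one for each arm of each hairpin. They are taken from the deposited table, 5′ to 3′ in DNA letters, with the seed in capitals. The suffix of the fourth name is the table's mark for a base that differs from the Drosophila melanogaster sequence.
bdo-miR-275 (3p arm): tCAGGTACctgaagtagcgcgcg
bdo-mir-275-p5 (5p arm): cGCGCTAAtcagtgaccggggct
bdo-miR-305 (5p arm): aTTGTACTtcatcaggtgctctgg
dme-miR-305-3p_1ss20CT (3p arm): cGGCACATgttgaagtacattca

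The favoured arm differed between the hairpins. Over all libraries, bdo-miR-275 on the 3p arm held 89.52% of the miR-275 signal, and bdo-mir-275-p5 on the 5p arm held 1.09%. For miR-305 the 5p sequence held 80.92% of the signal, and the 3p sequence still held 18.2%. A computed duplex of the printed arms had 14 base pairs for miR-275 and 16 for miR-305. The printed seeds of miR-275 and miR-305 differ from each other. The other 4 of the 8 sequences are printed arms with bases added at the 3′ end, here in the same letters, to show that their seeds are the same.
dme-miR-275-3p_R+1: tCAGGTACctgaagtagcgcgcgt
aga-miR-275_R+2: tCAGGTACctgaagtagcgcgcgtt
dme-miR-275-5p_R+1: cGCGCTAAtcagtgaccggggctt
isc-miR-305_R+3: aTTGTACTtcatcaggtgctctgga

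Apart from these forms, 2 sequences of the table had the seed of bdo-miR-275, both named for miR-306. They are shown because they share that seed and differ in most of the bases after it.
bdo-miR-306: cCAGGTACttagtgactctca
dme-miR-306-5p_R-1: tCAGGTACttagtgactctca

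The signal of bdo-miR-306 ran from 1476.59 to 8146.23 in ovary libraries and from 1011.81 to 3769.36 in fat body libraries. It thus lay in the same order of magnitude as bdo-miR-275 in both tissues. The form dme-miR-306-5p_R-1 did not exceed 10.85 in any library. No other sequence shared the seed of bdo-miR-305, bdo-mir-275-p5 or dme-miR-305-3p_1ss20CT.

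Values are the authors' normalised signal per mature sequence, a scaled read number. Its sum per library ran from 434089 to 1155602, lowest at day 5 and highest at day 13 in each tissue, so shares of each library are given beside the deposited scale where they matter. Reads, as recovered from the steps between values, ran from 194119 to 1861166 per library. Tests were made with limma on log2(signal + 1) over the 321 sequences with a signal of at least 10 in at least 2 libraries, and 7 of the 8 sequences passed that filter. The eighth, dme-miR-275-5p_R+1, ran from 0 to 7.07. A sequence counts as called when its p, adjusted by the Benjamini-Hochberg method over all sequences tested, is under 0.05. With 2 libraries a group, p-values set a change against the spread between these samples within groups, pooled over all 8 groups. That pool includes the day 9 groups, whose 2 libraries lay furthest apart. Their chi-square per degree of freedom was 1448.62 in ovary and 2145.56 in fat body, and the next highest group, ovary day 13, had 233.09.

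The libraries labelled day 9 replicate 2 stood apart from their partners. MiRNAs of ovarian follicle and germ cells (miR-318, miR-989 and miR-994, 9 sequences) made up 26.3% of the library in ovary day 9 replicate 1 and 4.88% in the library labelled ovary day 9 replicate 2. In fat body they made up 0.474% at most, apart from the library labelled fat body day 9 replicate 2, with 26.6%. Muscle miRNAs (miR-1 and miR-133, 6 sequences) ran the other way, at 0.71% and 6.71% in the day 9 ovary libraries. The library labelled fat body day 9 replicate 2 had 1.23% of them, below the 6.33% to 8.07% of all other fat body libraries. Results are therefore given with all 16 libraries and with the 14 that remain without these.

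MiR-275 and miR-305 were among the more abundant miRNAs of both organs. Bdo-miR-275 ranked between 17 and 29 of all sequences in ovary libraries and between 8 and 29 in fat body libraries. Bdo-miR-305 ranked between 15 and 31 in ovary and between 9 and 26 in fat body. On the deposited scale both were higher at day 13 than at day 1 in each tissue. On that scale bdo-miR-275 stood at its highest at day 5 in the fat body, whereas in the ovary its highest mean was at day 13. As a share of the library, its mean was highest at day 5 in both tissues, and ovary days 5 and 13 overlapped. A difference between the tissues in its course over days was not called (adjusted p = 0.328 in limma).

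In the ovary, the signal of bdo-miR-275 was 2298.22 and 3175.17 at day 1, 4647.77 and 5185.47 at day 5, 5698.84 and 5129.04 at day 9 and 10573.70 and 7395.80 at day 13. The day 1 libraries were the lowest and the day 13 libraries the highest, while days 5 and 9 overlapped. In the fat body it was 2209.40 and 2149.89 at day 1, 7665.42 and 9026.59 at day 5, 6298.12 and 4680.59 at day 9 and 6883.08 and 6334.68 at day 13. Both day 5 libraries lay above all others, and both day 1 libraries lay below all others.

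Bdo-miR-305 in the ovary followed the same order, with 2219.20 and 3317.91 at day 1, 4242.61 and 5607.41 at day 5, 5414.31 and 6327.20 at day 9 and 10422.46 and 7245.71 at day 13. Here too the day 1 libraries were lowest, the day 13 libraries highest and the days between overlapped. In the fat body it was 4194.88 and 3137.98 at day 1, 6271.71 and 7634.58 at day 5, 7484.34 and 5930.13 at day 9 and 8757.93 and 10444.45 at day 13. The fat body day 13 libraries were thus the highest for bdo-miR-305 on the deposited scale, while days 5 and 9 overlapped. The lowest of the 4 days was day 1.

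**Figure D1:**
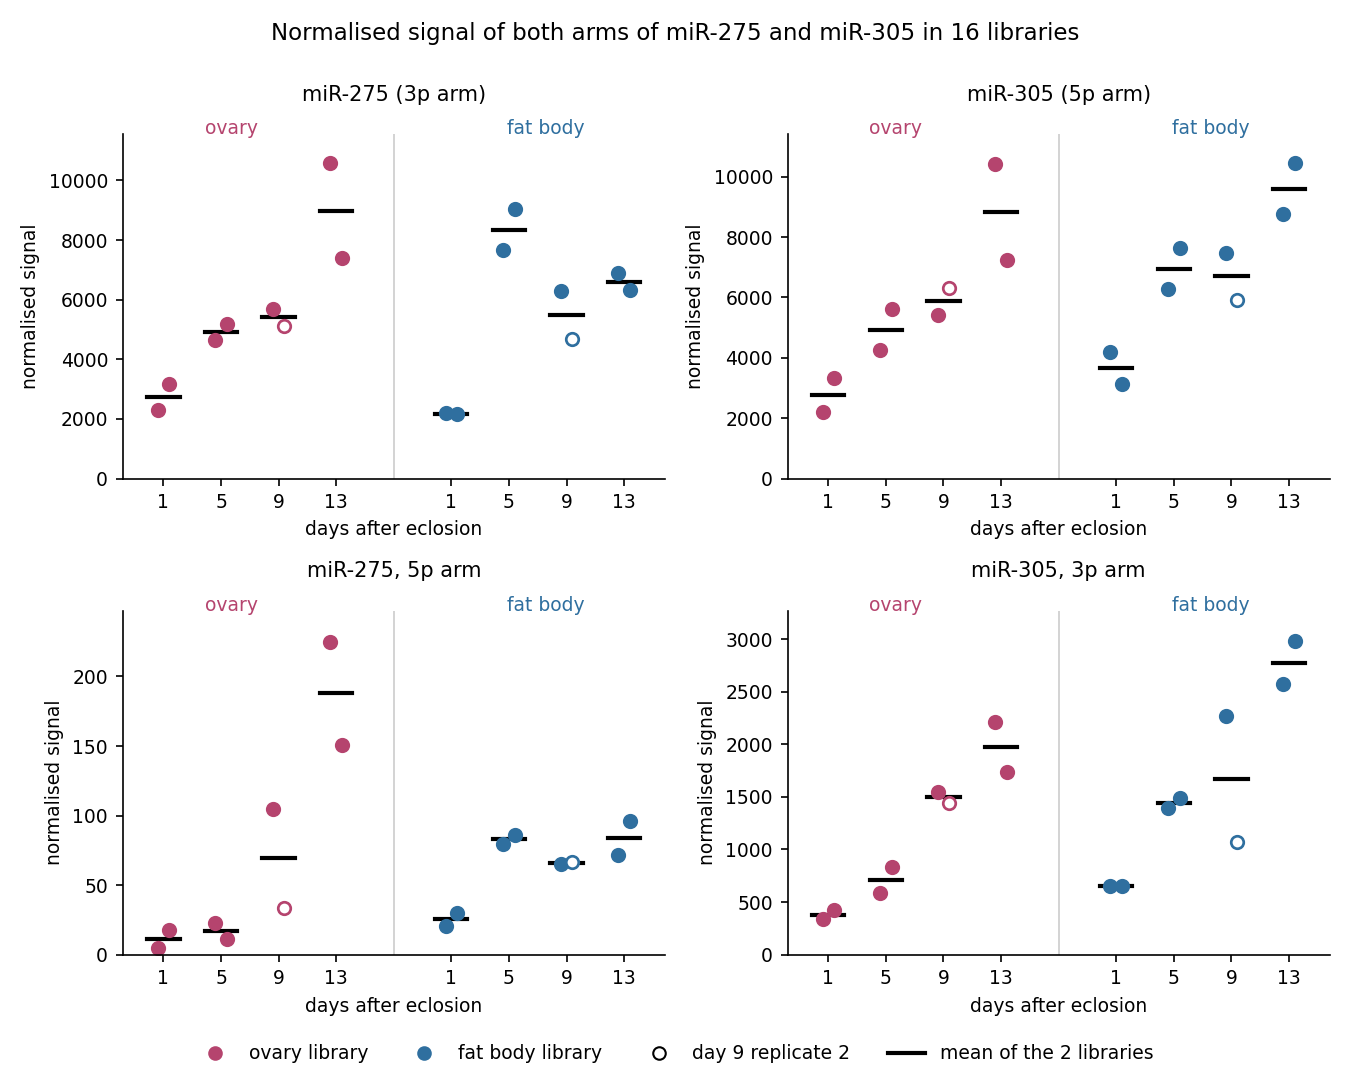
Normalised signal (vertical axes, from 0) of both arms of miR-275 and miR-305 against days after eclosion, ovary at the left and fat body at the right of each panel; each point is a library, open points are the libraries labelled day 9 replicate 2, and black lines are means of 2 libraries. Fat body bdo-miR-275 is highest at day 5 (7665.42 and 9026.59), and ovary bdo-miR-275 is highest at day 13 (10573.70 and 7395.80).

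Over the 4 days in ovary, a joint test called 4 of the 7 tested sequences, against 27.1% of all sequences tested. They were bdo-miR-275, bdo-miR-305 and their partner arms. With 1 library left out, this test called 53 sequences in all (without ovary day 13 replicate 1) to 154 (without fat body day 9 replicate 1), against 87 with all libraries. Ovary bdo-miR-275 averaged 8985 ± 2247 at day 13 and 2737 ± 620 at day 1 (SD, n = 2 each), and this was its largest change, 1.71 on the log2 scale (adjusted p = 0.0182 in the joint limma test). Ovary bdo-miR-305 averaged 8834 ± 2246 at day 13 and 2769 ± 777 at day 1, a log2 change of 1.68 (adjusted p = 0.0271). Without the libraries labelled day 9 replicate 2 the adjusted p-values were 0.000894 for bdo-miR-275 and 0.00393 for bdo-miR-305, where 54.9% of all sequences were called. With all other libraries kept, the bdo-miR-275 call was lost without ovary day 1 replicate 1 (adjusted p = 0.115) and without ovary day 13 replicate 1 (adjusted p = 0.0947). The bdo-miR-305 call was lost without either ovary day 1 library, without ovary day 13 replicate 1 and without either fat body day 13 library, at adjusted p-values of 0.0501 to 0.154.

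Set directly against day 1, day 13 ovaries had 5 of the 7 sequences higher and none lower, against 22.7% of all sequences tested that were higher. The change was 1.71 (SE 0.36, adjusted p = 0.00257, 3.273-fold) for bdo-miR-275 and 1.68 (SE 0.38, adjusted p = 0.00453, 3.202-fold) for bdo-miR-305. These 2 changes differed by less than either standard error. The bdo-miR-305 call was lost without ovary day 1 replicate 1 (1.39, adjusted p = 0.0519), and the bdo-miR-275 call was kept without any single library (adjusted p at most 0.0331). Forms of one arm come from the same hairpin and are not independent of each other.

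By day 5 in the ovary no change had passed the test. The change against day 1 was 0.86 for bdo-miR-275 (SE 0.36, adjusted p = 0.277) and 0.85 for bdo-miR-305 (SE 0.38, adjusted p = 0.322), and limma called none of the 321 sequences at this step, with 48 at an unadjusted p under 0.05, and on recovered reads edgeR called 0 and DESeq2 called 7. Without the libraries labelled day 9 replicate 2 it called bdo-miR-275 (adjusted p = 0.0437) and not bdo-miR-305 (adjusted p = 0.086), against 8.83% of all sequences. In ovary the change at day 13 against day 5 was 0.85 for bdo-miR-275 (adjusted p = 0.0887) and 0.83 for bdo-miR-305 (adjusted p = 0.11), and it turned to -0.17 and -0.19 when each library was scaled to its total. Without the libraries labelled day 9 replicate 2 both changes were called (adjusted p = 0.011 for bdo-miR-275 and 0.0305 for bdo-miR-305), with 48.3% of all sequences. With all libraries 26.8% of all sequences were called at this step and the median of all sequences was itself 0.62.

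In the fat body, the joint test over days called bdo-miR-275 and dme-miR-305-3p_1ss20CT, 2 of the 7 sequences, against 16.5% of all tested. With 1 library left out, it called 4 sequences in all (without fat body day 1 replicate 2) to 159 (without fat body day 9 replicate 1), against 53 with all libraries. Fat body bdo-miR-275 averaged 8346 ± 962 at day 5 and 2180 ± 42.1 at day 1 (SD, n = 2 each). The change was 1.93 (SE 0.36, adjusted p = 0.0191), or 3.815-fold. It was one of 3 sequences called at this step, 0.935% of all tested, and the other two, named here after their values were seen, were dme-miR-317-3p_R-2_2ss21CT22AC at 2.04 and the predicted candidate PC-3p-184721_37, which is listed at 0 in both fat body day 1 libraries. Over the same step bdo-miR-305 changed by 0.93 (SE 0.38, adjusted p = 0.277), from the same libraries. Without the libraries labelled day 9 replicate 2 the adjusted p was 0.000727 for bdo-miR-275. With those kept, the call was lost without any one of the 6 fat body libraries of days 1, 5 and 13, with changes of 1.81 to 2.05 and adjusted p-values of 0.0539 to 0.299.

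After day 5 neither miRNA passed the test of a further change in the fat body, where 9.66% of all sequences did. Fat body bdo-miR-275 at day 13 averaged 6609 ± 388, a change of -0.33 against day 5 (adjusted p = 0.637). On library totals this change was -1.12 (adjusted p = 0.0624 in limma). Fat body bdo-miR-305 at day 13 averaged 9601 ± 1193, a change of 0.47 (adjusted p = 0.517), which turned to -0.32 on library totals. Against day 1, fat body day 13 had 3 of the 7 sequences higher, against 6.23% of all tested: bdo-miR-275 by 1.60 (adjusted p = 0.0285), bdo-miR-305 by 1.40 (adjusted p = 0.0461) and dme-miR-305-3p_1ss20CT by 2.08 (adjusted p = 0.0204). All 3 calls were lost on library totals, with TMM factors and with edgeR, at changes of 0.71 to 1.49, and those of bdo-miR-275 and bdo-miR-305 also with no filter on low values (adjusted p = 0.052 and 0.0791). Leaving out 1 library ended the bdo-miR-275 call in 6 of 16 cases, the bdo-miR-305 call in 8 and the dme-miR-305-3p_1ss20CT call in 4. Those were the 4 fat body libraries of days 1 and 13 for all 3 sequences, also the ovary day 5 libraries for bdo-miR-275 and bdo-miR-305, and also the fat body day 5 libraries for bdo-miR-305. The highest adjusted p-values among them were 0.255, 0.321 and 0.230 in that order. In the joint test bdo-miR-305 had an adjusted p of 0.0732 in fat body with all libraries and 0.0228 without the libraries labelled day 9 replicate 2, where 32.8% of all sequences were called. The fat body joint call of bdo-miR-275 was lost without either fat body day 1 library, fat body day 5 replicate 2 or fat body day 13 replicate 1 (adjusted p = 0.0539 to 0.0852).

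These sizes change with the scale of the libraries. On the deposited scale the median of all 321 sequences was 0.33 higher at day 13 than at day 1 in ovary, and on library totals it was -0.29. Ovary bdo-miR-275 exceeded that median by 1.38 on the deposited scale, by 1.25 on library totals and by 1.25 with TMM factors, and bdo-miR-305 by 1.35, 1.22 and 1.22. On the last 2 scales the changes themselves were 0.96 (adjusted p = 0.0521) and 0.99 (adjusted p = 0.0951) for bdo-miR-275, so the day 13 call in ovary was lost there, as was that of bdo-miR-305 (0.93 and 0.96). It was also lost with edgeR on recovered reads (1.02, adjusted p = 0.122), as was that of bdo-miR-305 (0.97, adjusted p = 0.164). The fat body day 5 change of bdo-miR-275 was 1.98 above the median as deposited, 2.03 above it on library totals (adjusted p = 0.0133) and 1.92 above it with TMM factors (adjusted p = 0.118). With edgeR it was 1.47 (adjusted p = 0.217).

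**Figure D2:**
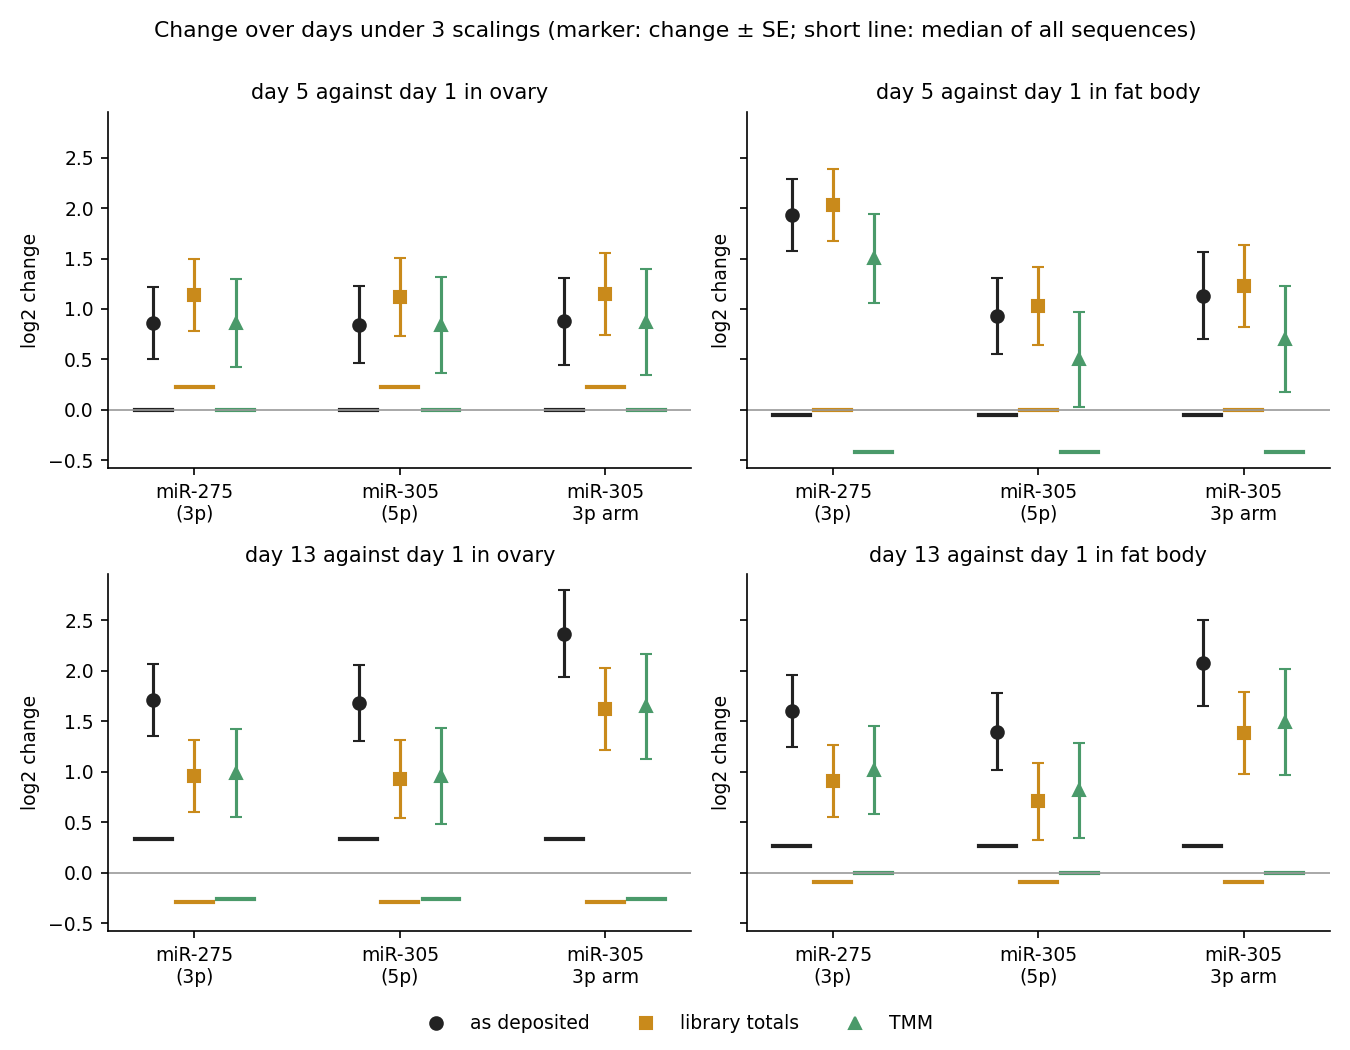
Log2 change at day 5 (top) and day 13 (bottom) against day 1, ovary at the left and fat body at the right; markers are the limma estimate ± SE under 3 scalings of the libraries, and short lines are the median change of all 321 sequences on that scale. Every marker lies above its line, and fat body bdo-miR-275 at day 5 is 1.93 as deposited against a median of -0.05.

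As a share of the library, bdo-miR-275 in fat body was again highest at day 5. It held 1.17% and 1.41% of the summed signal at day 5, against 0.321% and 0.308% at day 1, and it held 0.634% and 0.548% at day 13. In ovary its share was 1.04% and 1.19% at day 5 and 1.29% and 0.758% at day 13, so that these days overlapped. Its mean share in ovary was highest at day 5, while its mean on the deposited scale was highest at day 13. Bdo-miR-305 in fat body held 0.955% and 1.20% at day 5, above all other fat body libraries, and 0.807% and 0.904% at day 13. Its highest fat body day was thus day 5 as a share of the library and day 13 on the deposited scale. All 8 sequences of both miRNAs together made up between 0.992% and 3.01% of ovary libraries and between 0.896% and 3.04% of fat body libraries.

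**Figure D3:**
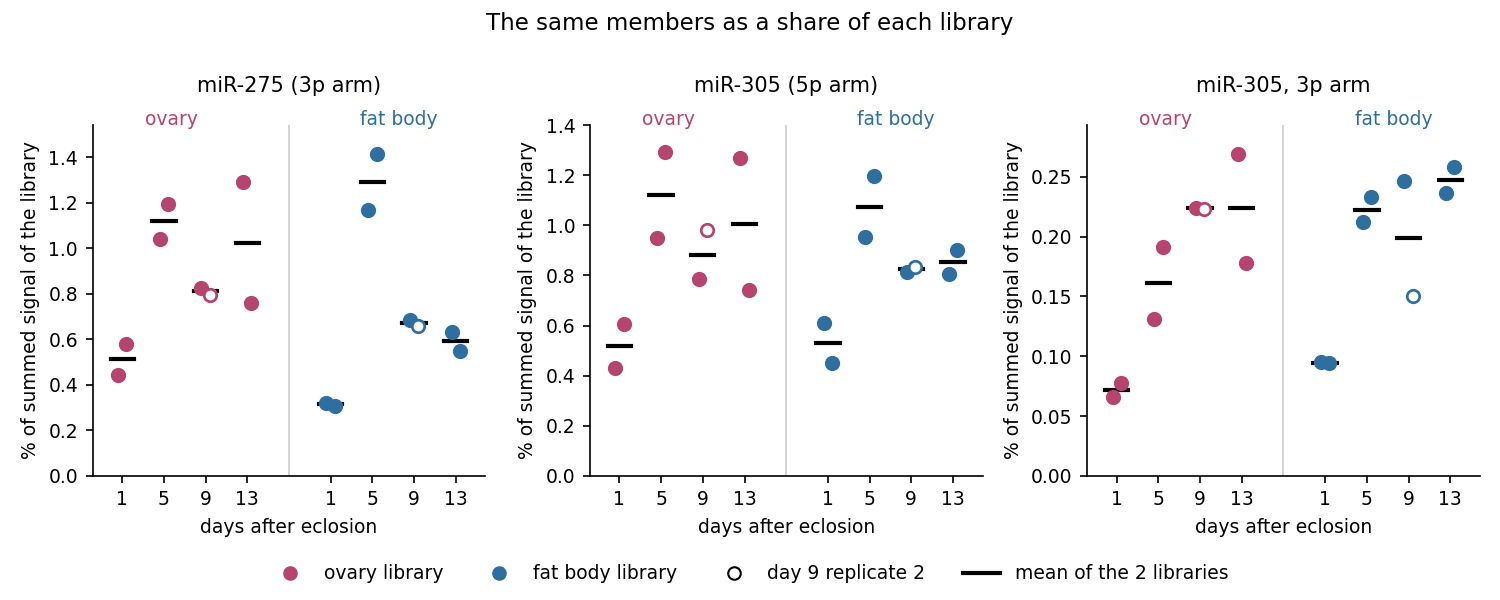
Percent of the library's summed signal (vertical axes, from 0) for bdo-miR-275, bdo-miR-305 and the 3p arm of miR-305 against days after eclosion, ovary at the left and fat body at the right of each panel; points are libraries, open points the libraries labelled day 9 replicate 2 and lines means of 2. On this scale the fat body shares of bdo-miR-275 (1.17% and 1.41%) and of bdo-miR-305 (0.955% and 1.20%) are highest at day 5.

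Averaged over days, no difference of bdo-miR-275 between ovary and fat body passed the test. The difference, ovary minus fat body, was -0.01 (SE 0.18, adjusted p = 0.976) and its direction turned on library totals (0.38). For bdo-miR-305 the difference was -0.31 (SE 0.19, adjusted p = 0.216), with 0.07 on library totals and -0.38 without the libraries labelled day 9 replicate 2 (adjusted p = 0.0586). Of the 7 sequences only the 3p arm of miR-305 was called, lower in ovary, where 37.1% of all sequences were called in either direction and 12.5% as lower. In bulk tissue, fewer cells of a type that makes the RNA and less of it per cell cannot be told apart.

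By day, the difference of bdo-miR-275, ovary minus fat body, was 0.31 at day 1 (SE 0.36, adjusted p = 0.804), -0.76 at day 5 (adjusted p = 0.203) and 0.42 at day 13 (adjusted p = 0.356). At day 5 its ovary libraries did not overlap those of fat body, 4647.77 and 5185.47 in ovary against 7665.42 and 9026.59 in fat body. None of the 7 sequences was called at day 1, 5 or 13, against 3.12%, 2.18% and 44.9% of all sequences. At an unadjusted p under 0.05 there were 0 of the 7 at day 1, 2 at day 5 and 0 at day 13, beside 48, 81 and 179 of all 321 sequences. On recovered reads edgeR called 0 of the 7 at each of these days, beside 0, 4 and 141 of all sequences. DESeq2 called 1 of the 7, at day 5, beside 27, 29 and 157 of all sequences at days 1, 5 and 13. Without the libraries labelled day 9 replicate 2 the day 5 difference of bdo-miR-275 was called (adjusted p = 0.0312), one of 3 of the 7 that were lower in ovary there, with 26.8% of all sequences called. In that fit dme-miR-305-3p_1ss20CT was also called lower in ovary at day 1 (-0.79, adjusted p = 0.0483), with 18% of all sequences called. The interaction of tissue and day, the test of whether the tissues differ in their course, was -1.07 for bdo-miR-275 (adjusted p = 0.328, and 0.0521 without those libraries) and 0.28 for bdo-miR-305 (adjusted p = 0.925). In limma it called none of the 7 with all libraries, against 11.2% of all sequences. One of the 7, bdo-mir-275-p5, had an unadjusted p under 0.05 there. On recovered reads DESeq2 called that sequence (adjusted p = 0.0292), 1 of the 51 it called in all, and edgeR called 0 of all sequences, with 74 at an unadjusted p under 0.05. With 1 library left out, limma called 1 to 110 sequences in all, the most without fat body day 9 replicate 1, against 36 with all libraries.

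The ratio of bdo-miR-275 to bdo-miR-305 within a library does not depend on how libraries are scaled. In ovary it was 1.036 and 0.957 at day 1, 1.096 and 0.925 at day 5, 1.053 and 0.811 at day 9 and 1.015 and 1.021 at day 13. The ovary days overlapped one another, and the library labelled ovary day 9 replicate 2 was the lowest. In fat body it was 0.527 and 0.685 at day 1, 1.222 and 1.182 at day 5, 0.842 and 0.789 at day 9 and 0.786 and 0.607 at day 13. Of the fat body libraries only those of day 5 were above 1, and they overlapped no other fat body day.

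The largest difference of mean log2 ratio against day 1 in fat body was 1.00, or 2.0-fold, at day 5 (exact permutation test over the days, p = 0.0381, adjusted over 6 ratio tests p = 0.1). In ovary it was -0.11 (exact permutation p = 0.886, adjusted p = 0.886). Between tissues the mean log2 ratio was -0.02 ± 0.14 in ovary and -0.32 ± 0.43 in fat body (SD, n = 8 each), a difference of 0.30 (exact permutation within days, two-sided p = 0.0571, adjusted p = 0.1). Without the libraries labelled day 9 replicate 2 the values were 1.00 over days in fat body, 0.08 over days in ovary and 0.34 between tissues. The smallest p-values these designs allow with all 16 libraries are 0.00154 between tissues and 0.00952 over days. None of the 6 ratio tests passed after adjustment with all 16 libraries.

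**Figure D4:**
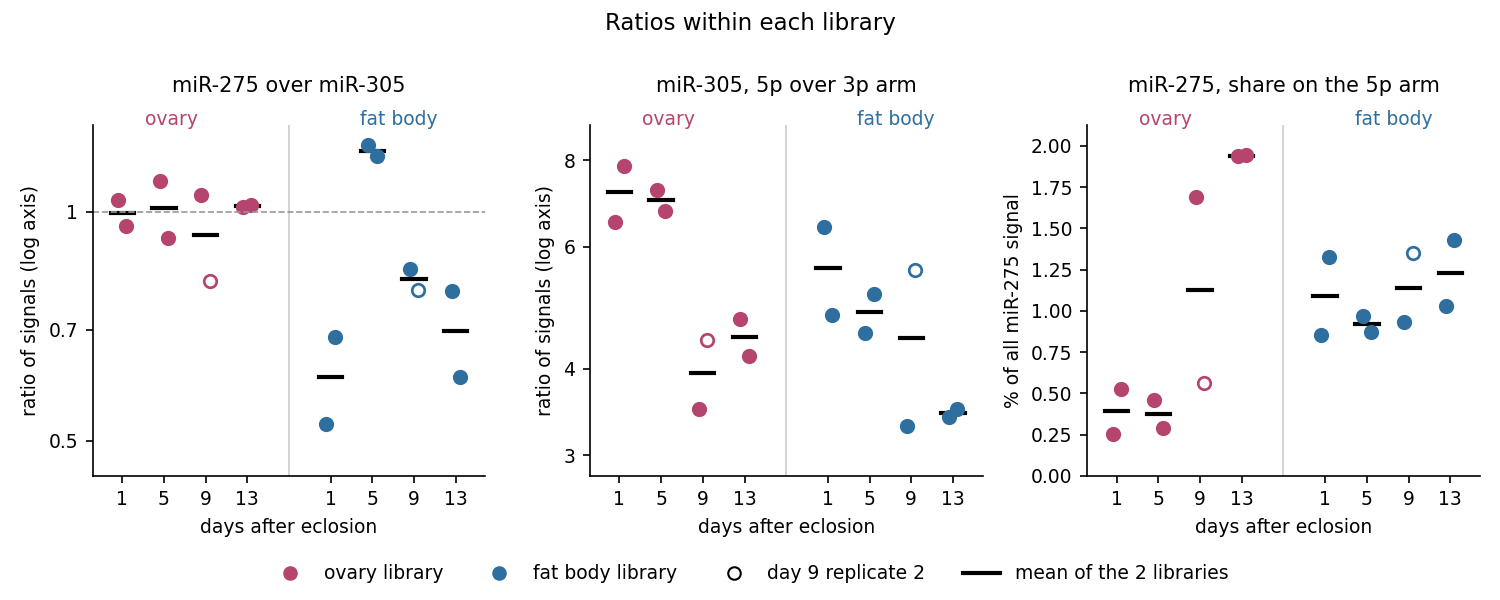
Ratio of bdo-miR-275 to bdo-miR-305 (log axis), ratio of the 5p to the 3p arm of miR-305 (log axis) and percent of miR-275 signal on the 5p arm (axis from 0) against days after eclosion, ovary at the left and fat body at the right of each panel; points are libraries, open points the libraries labelled day 9 replicate 2 and lines means of 2. Ovary ratios of bdo-miR-275 to bdo-miR-305 lie between 0.811 and 1.096, and those of fat body between 0.527 and 1.222.

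Across libraries bdo-miR-275 and bdo-miR-305 moved together. The Pearson correlation of their log2 signal was 0.880 over the 14 libraries without those labelled day 9 replicate 2 and 0.877 over all 16. These points share library, tissue and day, so the value is a description. None of the 314 tested sequences of other miRNAs had a higher correlation with bdo-miR-275 than bdo-miR-305 had, or with bdo-miR-305 than bdo-miR-275 had. The nearest others for bdo-miR-275 over the 14 libraries were dvi-miR-34-3p (0.732), pte-miR-92b-3p_R+1_1ss10CT (0.707), dme-miR-317-5p_1ss1TC (0.704), bdo-miR-308 (0.696) and dme-miR-6-3p_R-2_1ss1TC (0.66). For bdo-miR-305 they were dme-miR-317-5p_1ss1TC (0.771), bdo-mir-308-p3 (0.768), bmo-miR-2779_L-1_1ss2TC (0.732), dvi-miR-34-3p (0.723) and dme-miR-8-5p (0.711).

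The 3p arm of miR-305, the less abundant one, also was higher at later days. In ovary dme-miR-305-3p_1ss20CT was 340.53 and 422.31 at day 1, 584.71 and 830.31 at day 5, 1548.10 and 1439.40 at day 9 and 2207.85 and 1739.55 at day 13. On the deposited scale the ovary days did not overlap and stood in the order of age. In fat body it was 654.85 and 656.66 at day 1, 1390.64 and 1487.06 at day 5, 2268.42 and 1069.48 at day 9 and 2570.11 and 2982.74 at day 13. On that scale the fat body days also stood in the order of age, apart from the library labelled fat body day 9 replicate 2. That library lay below both day 5 libraries. As a share of the library, ovary day 13 (0.269% and 0.178%) overlapped day 5 (0.131% and 0.191%) and day 9 (0.224% and 0.223%). In fat body the share at day 9 replicate 1 (0.247%) lay between those of day 13 (0.237% and 0.258%).

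Ovary dme-miR-305-3p_1ss20CT was higher at day 13 than at day 1 by 2.37 (SE 0.43, adjusted p = 0.000997, 5.157-fold), a call kept on library totals (1.62, adjusted p = 0.00826) and with TMM factors (1.65, adjusted p = 0.0276). It was also higher at day 13 than at day 5, by 1.49 (adjusted p = 0.0239), where library totals gave 0.47 and TMM factors 0.77, neither called, and edgeR 0.79 (adjusted p = 0.316). That call was lost without ovary day 5 replicate 1 (1.24, adjusted p = 0.177) and without either ovary day 13 library. Its joint test was passed in ovary (adjusted p = 0.00349) and in fat body (adjusted p = 0.0313). The fat body joint call was lost without any one of the fat body libraries of days 1, 5 and 13, at adjusted p-values of 0.0569 to 0.134.

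Averaged over days, dme-miR-305-3p_1ss20CT was lower in ovary than in fat body, with a difference of -0.60 (SE 0.21, adjusted p = 0.0429), or 1.51-fold lower. The call was kept in 1 of the 16 fits that each left out 1 library, the one without the library labelled fat body day 9 replicate 2 (-0.73, adjusted p = 0.00397). The 15 others gave -0.46 to -0.66 with adjusted p-values of 0.0523 to 0.102. It was lost on library totals (-0.21, adjusted p = 0.401) and with TMM factors (-0.70, adjusted p = 0.05003). Without both libraries labelled day 9 replicate 2 it was -0.72 (SE 0.14, adjusted p = 0.00103), with 53.9% of all sequences called. At day 5 its ovary libraries, 584.71 and 830.31, lay below its fat body libraries, 1390.64 and 1487.06, a difference of -1.04 (adjusted p = 0.149 with all libraries and 0.0101 without those labelled day 9 replicate 2). Muscle miRNAs also were lower in ovary than in fat body libraries of days 1, 5 and 13, at 0.483% to 4.97% in ovary and 6.33% to 7.97% in fat body, and their part in the result was not tested.

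The ratio of the 5p to the 3p arm of miR-305 was 6.52 and 7.86 at day 1, 7.26 and 6.75 at day 5, 3.497 and 4.396 at day 9 and 4.72 and 4.17 at day 13 in ovary. All ovary libraries of days 1 and 5 were above those of days 9 and 13. In fat body it was 6.41 and 4.78 at day 1, 4.51 and 5.13 at day 5, 3.30 and 5.54 at day 9 and 3.408 and 3.502 at day 13. There the day 13 libraries were below those of days 1 and 5, and the day 9 libraries were far apart. The mean log2 ratio was 2.44 ± 0.43 in ovary and 2.15 ± 0.36 in fat body (SD, n = 8 each), a difference of 0.29 (exact permutation within days, two-sided p = 0.0494, adjusted p = 0.1). Without the libraries labelled day 9 replicate 2 it was 0.34 (exact permutation p = 0.00463, adjusted p = 0.0278). That permutation p is the smallest that the 432 arrangements of the 14 libraries allow. With all 16 libraries the largest change over days was -0.87 in ovary (exact permutation p = 0.0667, adjusted p = 0.1) and -0.68 in fat body (exact permutation p = 0.333, adjusted p = 0.4).

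The 5p arm of miR-275 was rare, and its largest change was in the ovary. Ovary bdo-mir-275-p5 was 5.03 and 17.72 at day 1, 23.02 and 11.31 at day 5, 104.83 and 33.51 at day 9 and 224.65 and 150.99 at day 13. The ovary day 13 libraries were the highest of all, and days 1 and 5 overlapped. Fat body bdo-mir-275-p5 was 20.48 and 30.13 at day 1, 79.82 and 85.85 at day 5, 65.02 and 66.57 at day 9 and 71.88 and 95.94 at day 13. Apart from the low day 1 libraries, the fat body days were close to each other.

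Against day 1, ovary day 13 was higher by 4.12 (SE 0.70, adjusted p = 0.000654) for bdo-mir-275-p5, a value that rests on 7 and 36 recovered reads at day 1 and 510 and 168 at day 13. It was 3.31 without ovary day 1 replicate 1, 4.94 without ovary day 1 replicate 2, 3.42 on library totals, 3.42 with TMM factors and 3.30 with edgeR, and each of these was called. In fat body the same change was 1.70 (adjusted p = 0.157), not past the test. The interaction of tissue and day was 2.42 (adjusted p = 0.137, and 0.036 without the libraries labelled day 9 replicate 2, where 30.3% of all sequences were called). Without ovary day 1 replicate 1 the largest interaction value was -1.82 (adjusted p = 0.145), from another day. As a share of all miR-275 signal in ovary, the 5p arm made up 0.255% and 0.528% at day 1, 0.457% and 0.289% at day 5, 1.69% and 0.564% at day 9 and 1.94% and 1.94% at day 13. In fat body the share stayed between 0.855% and 1.43% over all 8 libraries. Ovary shares of days 1 and 5 were thus below every fat body share, and ovary shares of day 13 were above every fat body share.

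Among the lengthened forms, dme-miR-275-3p_R+1 and aga-miR-275_R+2 together made up 6.38% to 13.1% of the miR-275 3p signal in ovary and 6.96% to 12.6% in fat body. The extremes came partly from day 9, with 7.66% and 13.1% in ovary and 12.6% and 6.96% in fat body for replicates 1 and 2. The signal of dme-miR-275-3p_R+1 ran from 190.38 to 965.44 in ovary and from 191.42 to 929.03 in fat body, and it was higher in ovary at day 13 than at day 1 by 1.57 (adjusted p = 0.0476). That call was lost on library totals (0.82, adjusted p = 0.286), with TMM factors (0.85), with edgeR (0.97) and with DESeq2 (1.34). It was also lost without any one library of days 1, 5 and 13 except ovary day 13 replicate 2, at adjusted p-values of 0.0542 to 0.287. For aga-miR-275_R+2 the same change was 0.65 (adjusted p = 0.609) and for isc-miR-305_R+3 it was 0.38 (adjusted p = 0.778). The signal of isc-miR-305_R+3 ran from 32.23 to 111.99 in ovary and from 49.12 to 109.81 in fat body.

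Other miRNAs with roles in mosquito female reproduction (miR-8, miR-184, miR-276, miR-277, miR-309 and miR-989, with 20 tested sequences) were set beside these. Averaged over days, 5 were higher and 8 lower in ovary, with a median of -0.79, against 24.6% higher and 12.5% lower and a median of 0.20 over all sequences. Without the libraries labelled day 9 replicate 2, 6 were higher and 13 lower, with 53.9% of all sequences called in either direction. The higher ones were of miR-309 and miR-989, for example dvi-miR-989-3p_R+1 at 4.34 (adjusted p = 0.00111). The miR-989 forms are also in the list of follicle and germ cell miRNAs. The miRNAs miR-1174, miR-1175 and miR-1890 of the same list had no sequence in the table.

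At day 13 against day 1 with all 16 libraries, 8 of those 20 were higher and 2 lower in ovary, with a median of -0.02. Over all sequences 22.7% were higher and 9.66% lower, with a median of 0.33. In fat body 1 of the 20 was higher, against 6.23% of all sequences. Ovary bdo-miR-309b was higher by 11.02 (adjusted p = 0.000172), and miR-309 in Aedes aegypti is known for a part in ovarian development. Another list held miRNAs tied to nutrient and insulin signalling or energy balance in Drosophila melanogaster (miR-8, miR-14, miR-277 and miR-278, 10 tested sequences). MiR-8 and miR-277 are in both lists, so the lists are not independent. Of these 10, none was higher and 6 were lower in ovary over days, against 24.6% higher and 12.5% lower over all sequences. Without the libraries labelled day 9 replicate 2, 7 were lower, with 53.9% of all sequences called in either direction. Examples of the lower ones, with all 16 libraries, are bdo-miR-8_R+1 at -2.08 (adjusted p = 0.000887) and dme-miR-277-3p at -1.51 (adjusted p = 0.00612). In fat body at day 13 against day 1 with all 16 libraries, 2 of these 10 were higher, against 6.23% of all sequences. Among them was bdo-miR-14, by 1.74 (adjusted p = 0.0139).

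The shares of marker miRNAs of other cell types varied over days in both tissues. Follicle and germ cell miRNAs made up 0.298% and 0.222% of the ovary libraries at day 1, 4.79% and 6.66% at day 5 and 19.9% and 23.5% at day 13. Muscle miRNAs made up 4.32% to 4.97% of ovary libraries at days 1 and 5 and 0.483% and 0.49% at day 13. MiR-263 (9 sequences) had been listed as a gut marker. It made up 0.449% to 1.38% of ovary libraries at days 1 and 5 and 7.67% and 6.0% at day 13. It also made up 4.38% of the library labelled fat body day 9 replicate 2, which was high in follicle and germ cell miRNAs. Whether miR-263 marks gut in these libraries was not tested. Nerve miRNAs (miR-124, miR-137 and miR-1000, 7 sequences) made up 0.0749% and 0.133% of ovary libraries at day 1 and 0.0196% and 0.00519% at day 13. In fat body they made up 0.156% and 0.152% at day 1, 0.119% and 0.0792% at day 5 and 0.0482% and 0.0273% at day 13. In both tissues their day 13 libraries thus lay below those of day 1. In the fat body the follicle and germ cell miRNAs made up 0.0225% and 0.0625% of the library at day 1, 0.185% and 0.2% at day 5 and 0.0239% and 0.143% at day 13. Of these 3 days, day 5 was the highest for them, as it was for bdo-miR-275. In fat body day 9 replicate 1 they made up more than at day 5, 0.474%, while bdo-miR-275 was lower than at day 5, at 6298.12. MiR-263 in fat body at days 1, 5 and 13 ran from 0.771% to 1.41% and muscle miRNAs from 6.33% to 7.97%. The part of these marker miRNAs in the changes of miR-275 and miR-305 was not tested in either tissue.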

How the data were processed

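Small RNA was measured in 16 libraries, grouped by the labels into 8 groups of 2 by tissue and day. Per the labels' protocols, RNA was isolated with Trizol and turned into libraries with a TruSeq small RNA kit, and the authors used the ACGT101-miR program to remove adapter dimers, junk, low complexity reads, other RNA families and repeats. Aligner, genome build and scaling were not given in the sources used here. Where the series' own text counts fewer samples than the labels, groups follow the labels.

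The deposited table gives a normalised signal per mature sequence, marked as normalised per the file headers, with 788 entries for 747 distinct sequences. Its low values were multiples of 1 step per library, whole within a tolerance of 0.1 in 91.6% to 96.8% of cases, and dividing by the step gave the recovered reads. Replicates of a group were no copies of each other, with a chi-square per degree of freedom of at least 28.48. Without molecular identifiers, reads are no count of independent molecules, and their number limits the precision of low values.

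Sequences reaching a signal of 10 in 2 or more libraries were tested as log2(signal + 1) with limma 3.58.1 in R 4.3.3, as 8 group means with an intensity trend, on 8 residual and 4.91 prior degrees of freedom. Fold changes are of signal + 1, which understates those of low sequences. Benjamini-Hochberg adjustment ran over all sequences of a comparison. A joint test asks whether any day differs from day 1, and its value, like that of the interaction, is the largest change against day 1. Ratios were tested by exact permutation of libraries within days or over days. The limma code was tested on simulated data. Alternatives were other pseudocounts, filters and scalings, edgeR 4.0.16 and DESeq2 1.42.0 on recovered reads, a replicate block, and libraries left out. Named neighbours are the 5 sequences with the highest correlation with each miRNA over 14 libraries. Duplexes were folded with RNAduplex 2.7.2. The miRNAs, lists and tests were chosen with earlier results of these data known. Replicate numbers were not treated as pairs, since the labels do not say that they pair samples. The correlation of replicate differences between groups ran from -0.753 to 0.362 and was above 0.1 in 9 of 28 pairs of groups, which does not settle whether samples were paired.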

Additional observations from a re-analysis of the deposited data

Results flagged for a closer look

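The day courses of bdo-mir-275-p5, the 5p arm of miR-275, differed between ovary and fat body when the libraries labelled day 9 replicate 2 were left out. The change at day 13 against day 1 was 4.12 in ovary and 1.70 in fat body on the log2 scale, a difference of 2.42 (adjusted p = 0.036 for the interaction of tissue and day in limma). With all 16 libraries the largest value of the interaction was again 2.42, with an adjusted p of 0.137 in limma. DESeq2 on recovered reads gave a largest value of 2.20 (adjusted p = 0.0292). These p-values belong to the joint test over all days, and the day 13 difference was not tested alone. Without ovary day 1 replicate 1, which held 7 recovered reads of this sequence, the largest interaction value was -1.82 (adjusted p = 0.145). With 2 libraries a group, the gap test for an outlying library within its group was not run.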

How the results depend on the processing

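Both scaling and single libraries moved the results. On library totals the tissue differences of bdo-miR-275 (0.38) and bdo-miR-305 (0.072) changed sign, as did bdo-miR-305 at day 5 (0.052) and day 13 (0.19) between tissues, day 13 against day 5 in ovary (bdo-miR-275 -0.17, bdo-miR-305 -0.19) and in fat body (bdo-miR-305 -0.32). The joint ovary calls of bdo-miR-275 and bdo-miR-305 were lost on library totals, with TMM factors and with edgeR. The largest changes there were 1.13, 0.99 and 1.02 for bdo-miR-275 and 1.12, 1.06 and 1.04 for bdo-miR-305. On library totals both were day 5 changes, with 0.96 and 0.93 at day 13. Nor were the bdo-miR-305 values with TMM factors and edgeR those of day 13. The joint ovary call of bdo-miR-305 was also lost with no filter (1.68), and that of dme-miR-305-3p_1ss20CT with edgeR (1.91). In fat body the joint call of bdo-miR-275 was lost with TMM factors (1.5001) and edgeR (1.47), and that of dme-miR-305-3p_1ss20CT on library totals (1.38), with TMM factors (1.49), with edgeR (1.47) and with the replicate block (2.08, adjusted p = 0.0526). The tissue call of dme-miR-305-3p_1ss20CT was lost with no filter (-0.60), on library totals (-0.21), with TMM factors (-0.70), with edgeR (-0.71) and with the replicate block (-0.60, adjusted p = 0.0644). The block also ended the fat body day 13 against day 1 calls of bdo-miR-275 and bdo-miR-305 (adjusted p = 0.0515 and 0.0654) and the ovary one of dme-miR-275-3p_R+1 (adjusted p = 0.0657) and changed no other call of the members named here. Without both libraries labelled day 9 replicate 2, bdo-miR-305 in fat body was called (1.40), the tissue difference of its arm ratio passed (0.34) and the ovary day value of the ratio of bdo-miR-275 to bdo-miR-305 changed sign (0.08). The cause of these shifts was not tested. With 1 library left out, values ran from -0.073 to 0.056 for bdo-miR-275 between tissues, from 1.45 to 1.97 over ovary days and from 1.81 to 2.05 over fat body days. For bdo-miR-305 they ran from 1.39 to 1.97 over ovary days, from 1.19 to 1.61 over fat body days, from -0.38 to 0.57 for the interaction and from -0.40 to 0.12 between tissues at day 13. For dme-miR-305-3p_1ss20CT they ran from -0.73 to -0.46 between tissues and from 1.97 to 2.18 over fat body days. For bdo-mir-275-p5 they ran from -1.82 to 3.24 for the interaction and from -0.12 to 1.51 at day 5 against day 1 in ovary. The ratio of bdo-miR-275 to bdo-miR-305 over ovary days ran from -0.30 to 0.14 and the tissue difference of the miR-305 arm ratio from 0.19 to 0.38. Sequences called numbered 119 between tissues (75 at a minimum of 100, 78 to 161 with 1 library left out), 87 over ovary days (174 without both libraries labelled day 9 replicate 2, 53 to 154 with 1 left out), 53 over fat body days (33 at a minimum of 100, 104 without both, 115 by DESeq2, 4 to 159 with 1 left out) and 36 for the interaction (1 to 110 with 1 left out, 12 with no filter, 4 on library totals, 96 without both, 1 with the block, and 0 by edgeR, which had 74 at an unadjusted p under 0.05).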
